A study of Homo sapiens with 6 samples.

Results

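SOX genes encode transcription factors that share a DNA-binding HMG box. The 10 members described here are SOX2, SOX4, SOX5, SOX6, SOX8, SOX9, SOX10, SOX11, SOX12 and SOX13, found by symbol among the 40895 gene identifiers of the count files. All 10 were found, and all 10 were among the 15954 genes with enough counts to be tested. They were chosen with their levels in shPRAME and shCtrl cells known, so their differences are given as a description, with no test.

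Transcripts were measured by polyA RNA sequencing of A375SM cells, a metastatic subline of the human melanoma line A375. The 3 shPRAME libraries came from cells with a short hairpin RNA (shRNA) against PRAME, a testis-specific antigen gene that is often switched on in melanoma. The 3 shCtrl libraries came from cells with a control shRNA. Both groups carry the tissue label skin, the genotype label WT and batch label 1, and no drug, dose or time is given. The labels do not say whether the 3 libraries of a group were separate cultures, and p-values here reflect library-to-library spread that could be purely technical. The sources used here give neither the number of hairpins nor their sequences.

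SOX proteins bind the minor groove at sequences close to ACAAT and bend the DNA, and they usually act with partner factors. The family is divided by sequence into subgroups. SOXE factors (SOX8, SOX9, SOX10) act in neural crest, glia, cartilage and melanocytes, SOXC factors (SOX4, SOX11, SOX12) in neuronal and mesenchymal progenitors, SOXD factors (SOX5, SOX6, SOX13) lack a transactivation domain of their own and work beside other SOX proteins, and the SOXB1 factor SOX2 maintains stem and neural progenitor cells. SOX10 is the lineage factor that melanoma cells most often retain.

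Library totals were 30842788 to 33854545 counts in shPRAME and 31525186 to 34107332 counts in shCtrl. PRAME had 1803, 1993 and 1857 counts in the shPRAME libraries and 5623, 5356 and 5083 counts in the shCtrl libraries, 34.2% of the control level after scaling (log2 fold change -1.55, SE 0.03, edgeR adjusted p = 4.85e-17). Of the melanocytic markers, MITF averaged 37.7 CPM in shPRAME and 44.6 CPM in shCtrl and S100A1 91.7 CPM in shPRAME and 65.9 CPM in shCtrl, while the pigment gene TYR had no count, and PMEL, MLANA, DCT and TYRP1 stayed at or below 0.272 CPM on average in both groups. Of all tested genes, 74.4% differed between the groups at an adjusted p under 0.05, 37.7% higher and 36.8% lower in shPRAME. The groups did not overlap at 76.5% of tested genes, with shPRAME higher at 38.7% and lower at 37.8%.

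Against that background, 9 of the 10 members passed the same threshold, 5 higher (SOX4, SOX5, SOX8, SOX11, SOX12) and 4 lower (SOX2, SOX6, SOX9, SOX13), and SOX10 did not. Nothing is read from this count, because the members were chosen from this contrast. The groups did not overlap at any of the 10, 6 of them higher and 4 lower in shPRAME. SOX8 and SOX11 entered the test only through the shPRAME libraries, since no shCtrl library reached 10 counts for either. Levels are TMM-scaled CPM, counts scaled by library size and composition. In bulk RNA, a change in the number of cells that express a gene and a change in RNA per cell cannot be told apart.

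**Figure D1:**
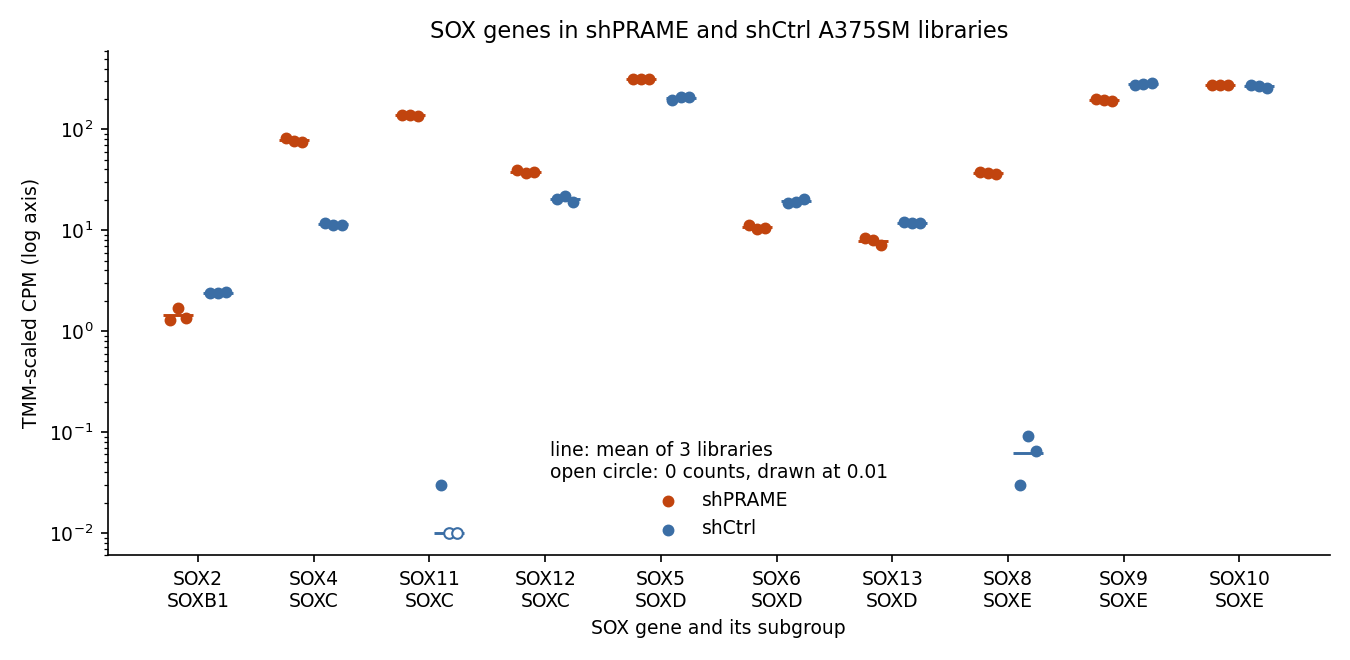
Level of each SOX gene in each library as TMM-scaled CPM on a log axis, shPRAME left of shCtrl; points are libraries and lines are means of 3. SOX11 and SOX8 stand at 36.3 CPM or more in every shPRAME library and at 0.0918 CPM or less in every shCtrl library, while the SOX10 points of the 2 groups lie close together.

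SOXC genes were all higher in shPRAME cells. SOX11, which drives gene expression in immature neurons, is a single-exon gene on chromosome 2 (5692384 to 5701385, GRCh38, plus strand). It stood at 139.8, 137.7 and 136.7 CPM in the shPRAME libraries, against 1 count in shCtrl replicate 1 and none in the other 2 shCtrl libraries. Every shPRAME library held at least 4368 counts of a gene with next to none in control cells. Over the groups 13837 counts faced 1 count, a ratio of 13435 (95% interval from counting error alone, exact binomial, 2411 to 530685).

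SOX4, a progenitor factor that also acts in epithelial-mesenchymal transition, lies on chromosome 6 (21593751 to 21598619, plus strand) in a single exon. It stood at 81.4, 76.7 and 74.2 CPM in shPRAME and at 11.7, 11.3 and 11.3 CPM in shCtrl, 6.79-fold higher (log2 fold change 2.76, SE 0.05). SOX12, the third SOXC gene and the one with the weakest known effects when lost in mice, lies near the end of chromosome 20 (325552 to 330224, plus strand). It stood at 39.3, 36.7 and 37.8 CPM in shPRAME and at 20.4, 21.997 and 18.9 CPM in shCtrl, 1.86-fold higher (log2 fold change 0.89, SE 0.05). The 3 SOXC genes thus shared a direction but differed widely in size, SOX12 by under 2-fold.

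Promoter sequence was available in RefSeq (GRCh38.p14) for 6 members, SOX2, SOX4, SOX5, SOX6, SOX12 and SOX13. SOX8, SOX9, SOX10 and SOX11 had no entry. The 250 bases before the start are shown for SOX4 and SOX12, the SOXC genes that had an entry and were both higher in shPRAME. Both are on the plus strand and written 5′ to 3′, SOX4 from chr6:21593501-21593750 and SOX12 from chr20:325302-325551. Capitals mark the GC box, GGGCGG or CCGCCC, which SP1 and related factors bind.
SOX4: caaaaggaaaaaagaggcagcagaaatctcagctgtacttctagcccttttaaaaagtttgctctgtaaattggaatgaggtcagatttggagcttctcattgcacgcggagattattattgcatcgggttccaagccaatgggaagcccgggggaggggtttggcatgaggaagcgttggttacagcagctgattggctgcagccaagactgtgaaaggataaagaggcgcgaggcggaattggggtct
SOX12: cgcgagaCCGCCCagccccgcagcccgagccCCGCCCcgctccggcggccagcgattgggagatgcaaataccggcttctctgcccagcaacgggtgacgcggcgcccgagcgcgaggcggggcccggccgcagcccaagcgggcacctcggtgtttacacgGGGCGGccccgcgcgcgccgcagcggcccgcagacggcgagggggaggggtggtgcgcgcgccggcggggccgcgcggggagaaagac

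The SOX12 window held 3 GC boxes and the SOX4 window none, while 42.3% of 27305 RefSeq promoter windows of that length held at least 1. Those of SOX2, SOX5, SOX6 (at its outermost start) and SOX13 held 1 each. ACAAT or ATTGT, the core that SOX proteins bind, stood 2 times each in the SOX5 and SOX6 windows and in none of the 4 others, against 25.2% of all windows. The SOX6 window overlaps the start of C11orf58, and the SOX5 window overlaps the annotated span of SOX5. The letters ACAAAG or CTTTGT stood once in the SOX2 window and in none of the 5 others, against 13.7% of all windows. TATAAA or TTTATA occurred in none of these 6 windows and in 11.1% of all. Windows at the other annotated starts of SOX6 are left out of these counts, and some of them differ. The window at chr11:16356547-16356796 held 2 matches to TATAAA or TTTATA and 2 to ACAAAG or CTTTGT. Both strands were searched for each motif. GC content was 48.8% at SOX4, 58.8% at SOX6, 60.8% at SOX13, 65.6% at SOX5, 68.8% at SOX2 and 79.2% at SOX12, with a median of 58.0% over all windows. The SOXC pair thus held the lowest and the highest GC content of the 6.

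SOXD genes went both ways. SOX5, a partner of SOX9 in cartilage and a modulator of SOX10 activity in mouse melanocytes, is a long gene on chromosome 12 (23529504 to 24562650, minus strand). It stood at 318, 318 and 314 CPM in shPRAME and at 196, 208 and 209 CPM in shCtrl, 1.55-fold higher (log2 fold change 0.63, SE 0.03). SOX6, which acts with SOX5 in cartilage and in other tissues, was lower. Its values were 11.3, 10.4 and 10.6 CPM in shPRAME and 18.7, 18.8 and 20.3 CPM in shCtrl, a log2 fold change of -0.84 (SE 0.06; chromosome 11, 15966449 to 16738477, minus strand). SOX13, which takes part in T cell lineage choice in mice, was also lower. It stood at 8.45, 7.98 and 7.18 CPM in shPRAME and at 12.1, 11.7 and 11.7 CPM in shCtrl, a log2 fold change of -0.59 (SE 0.08; chromosome 1, 204073115 to 204127743, plus strand). SOX5 was the only SOXD gene of high level, so the summed SOXD level followed it.

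SOXE genes split 3 ways. SOX8, a relative of SOX9 and SOX10 that can partly stand in for them in neural crest derivatives of mice, lies near the end of chromosome 16 (981770 to 986979, plus strand). It had 1174, 1270 and 1253 counts in the shPRAME libraries (37.6, 36.8 and 36.3 CPM) and 1, 3 and 2 counts in the shCtrl libraries. The group totals, 3697 and 6 counts, gave a ratio of 598 (counting interval 274.6 to 1631). SOX8 and SOX11 were the only members with next to no reads in control cells.

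SOX9, the cartilage and Sertoli cell factor, was lower in shPRAME cells. It stood at 199.7, 195 and 191 CPM in shPRAME and at 277, 281 and 290.2 CPM in shCtrl, 69.2% of the control level (log2 fold change -0.53, SE 0.03; chromosome 17, 72121020 to 72126416, plus strand). SOX10 (chromosome 22, 37972312 to 37984555, minus strand) differed least of the members. Its level was 274, 276 and 276 CPM in shPRAME and 272, 269 and 257 CPM in shCtrl. The log2 fold change was 0.05 (SE 0.03), so the means differed by less than the range of the shCtrl libraries, although each shPRAME library lay above each shCtrl library. SOX10 lies wholly inside the span of POLR2F, a subunit gene of RNA polymerases on the opposite strand, which averaged 43.8 ± 0.864 CPM in shPRAME and 36.7 ± 1.03 CPM in shCtrl (SD, n = 3 each). The sources used here do not say whether counting used strand, so reads of the 2 genes may be mixed.

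SOX2 was the least abundant member in shPRAME. It stood at 1.28, 1.68 and 1.36 CPM in shPRAME (40, 58 and 47 counts) and at 2.37, 2.39 and 2.46 CPM in shCtrl (80, 78 and 76 counts). The shPRAME libraries lay below all shCtrl libraries, with a log2 fold change of -0.73 and a wider error than the other members (SE 0.16). SOX2 (chromosome 3, 181711925 to 181714436, plus strand) lies inside the long noncoding gene SOX2-OT, which had no count in any library.

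Levels of different genes were compared per kilobase of the longest annotated transcript. In shPRAME the order was SOX10 (95.7 ± 0.513 CPM per kilobase), SOX9 (49.7 ± 1.07), SOX5 (45.4 ± 0.323), SOX11 (15.8 ± 0.180), SOX4 (13.2 ± 0.622), SOX8 (8.89 ± 0.155), SOX12 (8.196 ± 0.284), SOX13 (2.19 ± 0.179), SOX6 (1.21 ± 0.0572) and SOX2 (0.574 ± 0.0846; SD, n = 3). In shCtrl it was SOX10 (92.3 ± 2.76 CPM per kilobase), SOX9 (71.8 ± 1.73), SOX5 (29.3 ± 1.02), SOX12 (4.41 ± 0.334), SOX13 (3.31 ± 0.0575), SOX6 (2.17 ± 0.0978), SOX4 (1.95 ± 0.0381), SOX2 (0.957 ± 0.0206), SOX8 (0.0149 ± 0.00751) and SOX11 (0.00113 ± 0.00196). The first 3 places were the same in both groups, and SOX11, SOX4 and SOX8 moved ahead of SOX12 in shPRAME. No neighbouring pair in either order overlapped in its libraries. With the union of exons as length the ranges of SOX9 and SOX10 overlapped in shCtrl (71.8 ± 1.73 and 71.6 ± 2.14), as did those of SOX6 and SOX2 in both groups and those of SOX8 and SOX12 in shPRAME. With that length SOX4 stood above SOX13 and SOX6 in shCtrl, so these places depend on the length used.

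Among 19163 protein-coding genes with a length, SOX10 ranked 459 in shPRAME and 496 in shCtrl by mean CPM per kilobase. SOX9 ranked 1060 in shPRAME and 674 in shCtrl, and SOX5 1202 in shPRAME and 1951 in shCtrl. SOX11 ranked 3703 in shPRAME and 15329 in shCtrl. SOX10 thus stayed within the most abundant protein-coding mRNAs of these cells in both groups.

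The SOX transcript pool, the sum of the 10 members per kilobase, came to 243, 241 and 239 CPM per kilobase in shPRAME and 206, 208 and 205 in shCtrl. SOXC supplied 38.4, 36.8 and 36.5 CPM per kilobase in shPRAME and 6.40, 6.67 and 6.01 in shCtrl, a share of the pool of 15.5% ± 0.297 in shPRAME and 3.08% ± 0.146 in shCtrl (SD, n = 3 each). SOXD supplied 20.3% ± 0.0480 in shPRAME and 16.9% ± 0.483 in shCtrl. The share of SOXE was 64.0% ± 0.286 in shPRAME and 79.6% ± 0.444 in shCtrl. In absolute terms the SOXE sum was 154.2 ± 0.794 CPM per kilobase in shPRAME and 164.1 ± 1.05 in shCtrl, since SOX9 was lower by more than SOX8 and SOX10 together were higher. By subgroup, the larger pool in shPRAME therefore came from SOXC genes and SOX5, while the SOXE sum was lower. Within SOXE, SOX8 alone was higher by much, at 8.89 CPM per kilobase in shPRAME and 0.0149 in shCtrl.

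**Figure D2:**
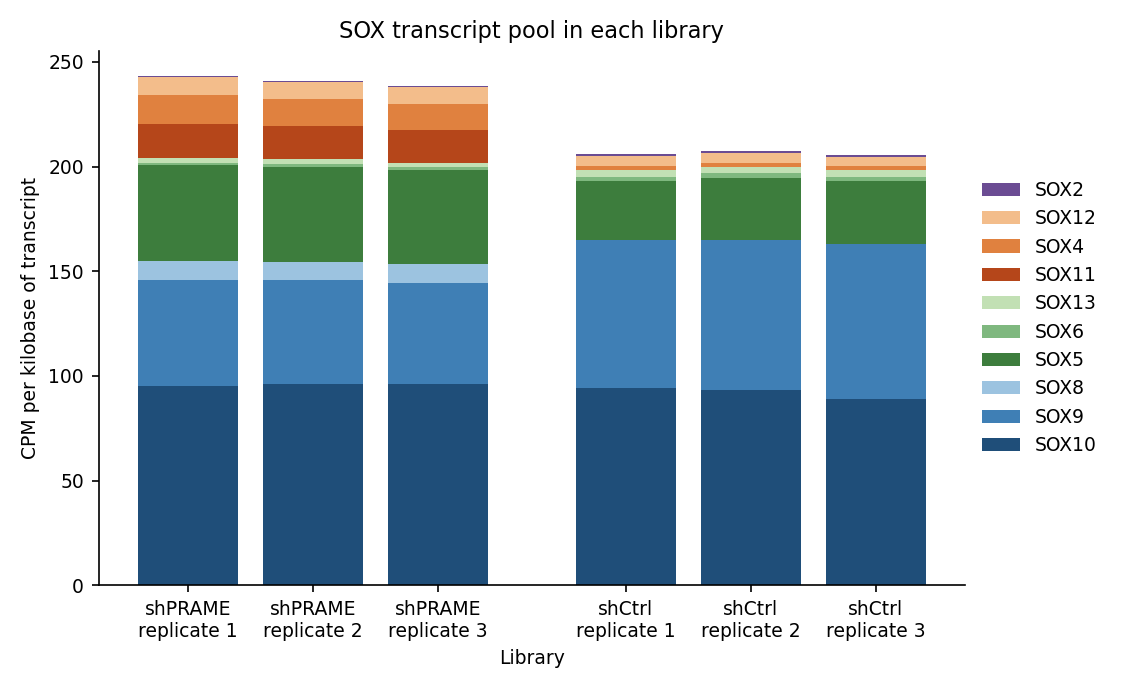
Summed level of the 10 SOX genes in each library in CPM per kilobase of the longest transcript, stacked by gene, with the 3 shPRAME libraries left of the 3 shCtrl libraries. The pool is 239 to 243 in shPRAME and 205 to 208 in shCtrl, and the SOXC layers (SOX11, SOX4, SOX12) account for 15.5% of it in shPRAME and 3.08% in shCtrl.

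Replicates lay close together. The coefficient of variation of CPM in shPRAME was 0.536% for SOX10, 0.710% for SOX5 and 1.14% for SOX11, and it was largest for SOX2, at 14.8%. In shCtrl it was 1.74% to 7.56% over the members other than SOX8 and SOX11. Counting alone would give a chi-square of about 1 per degree of freedom between the libraries of a group. SOX4 reached 5.57 in shPRAME, while SOX5 reached 8.27, SOX10 7.56 and SOX9 5.23 in shCtrl, more than counting gives in that group. In the other group SOX4 gave 0.144 (shCtrl), and SOX5 gave 0.536, SOX10 0.255 and SOX9 2.98 (shPRAME). The excess of SOX4, SOX5 and SOX10 was thus limited to 1 group each. SOX2 gave 1.05 in shPRAME and 0.0354 in shCtrl, and its spread was no larger than counting gives.

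The genes beside each member were examined to see whether whole regions moved. For each member the 10 nearest tested genes on either side were taken (13 in all at SOX12, which lies near a chromosome end), and other SOX members were left out. The median log2 fold change of these neighbours lay between -0.07 at SOX6 and 0.31 at SOX13, against 0.01 over all tested genes. At SOX11 it was 0.21, at SOX8 0.19 and at SOX4 0.25, below the values of the SOX genes themselves. Over all members, fitted log2 fold changes of single neighbours ran from -5.24 at SOX13 to 12.99 at SOX6, with 9.98 the highest at SOX13. They ranged from -1.85 to 5.09 at SOX4, from -1.10 to 6.24 at SOX8 and from -0.60 to 3.22 at SOX11. The neighbours of SOX2, SOX9 and SOX13 had medians above 0 (0.23, 0.07 and 0.31), opposite in sign to the SOX gene. SOX10 (0.05) lay 0.14 below the median of its neighbours (0.19), so its sign turned when that median was subtracted.

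**Figure D3:**
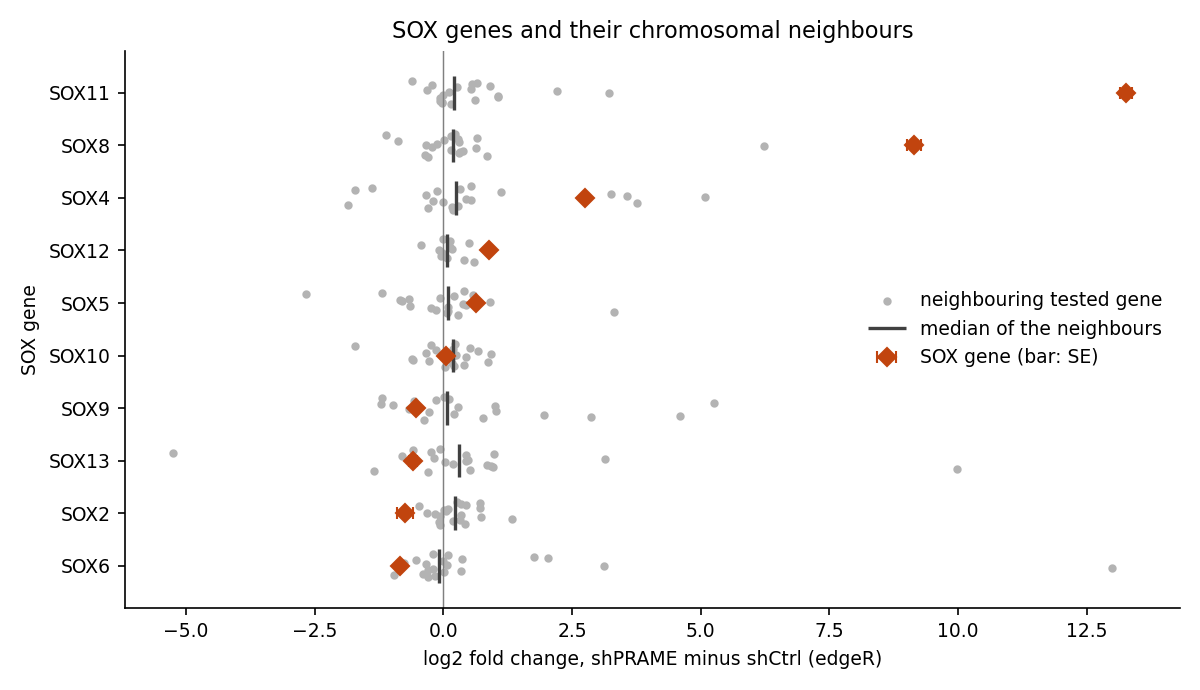
log2 fold change, shPRAME minus shCtrl, of each SOX gene (diamond, bar for the standard error) and of its nearest tested neighbours on the chromosome (grey points; black bar, their median). The medians of the neighbours lie between -0.07 and 0.31, while the SOX genes range from -0.84 for SOX6 to 13.26 for SOX11, a fitted value that depends on the prior count.

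The genes next to each member are given one by one. The long noncoding gene CEROX1 lies 157 bases before SOX8. Like SOX8, it had few control counts and entered the test only through shPRAME, so no test of it is given. CEROX1 had 312, 349 and 300 counts in shPRAME (9.60 ± 0.792 CPM) and 3, 2 and 7 counts in shCtrl (0.126 ± 0.0889 CPM; SD, n = 3 each). On its other side, 14651 bases away, the transcribed pseudogene LOC102723753 fell slightly (log2 fold change -0.33, edgeR adjusted p = 0.00966).

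SOX12 and SOX6 also have a gene within 300 bases. NRSN2-AS1 lies 300 bases before SOX12 on the opposite strand and averaged 3.09 ± 0.342 CPM in shPRAME and 2.94 ± 0.0112 CPM in shCtrl (log2 fold change 0.07, edgeR adjusted p = 0.623). C11orf58 lies 170 bases from SOX6 on the opposite strand and averaged 174 ± 2.13 CPM in shPRAME and 165 ± 7.11 CPM in shCtrl (log2 fold change 0.08, edgeR adjusted p = 0.0304). At SOX12 the adjoining gene did not pass, and at SOX6 it rose slightly where SOX6 was lower.

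Beside SOX4, CASC15, a long noncoding gene 67794 bases away, entered the test only through shPRAME. It had 69, 67 and 87 counts in shPRAME against 2, 3 and 1 in shCtrl, a ratio of 36.1 (counting interval 16.3 to 99.4). On its other side CDKAL1 averaged 19.4 ± 1.21 CPM in shPRAME and 14.3 ± 0.810 CPM in shCtrl (log2 fold change 0.44, edgeR adjusted p = 9.65e-06). SOX11 has no tested gene within 1139168 bases. The nearest 2 were CMPK2 (log2 fold change 0.11, edgeR adjusted p = 0.460) and COLEC11, a collectin gene at 14, 24 and 23 counts in shPRAME and 2, 4 and 0 counts in shCtrl, which entered the test only through shPRAME. SOX9 also stands alone, with LINC00673 276906 bases away (70.1 ± 2.10 CPM in shPRAME, 57.8 ± 1.95 CPM in shCtrl, edgeR adjusted p = 1.46e-06) and MAP2K6 on the far side (15.0 ± 0.417 CPM in shPRAME, 23.9 ± 1.93 CPM in shCtrl, edgeR adjusted p = 3.62e-08).

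The nearest genes of the remaining members were as follows. At SOX13, itself lower, SNRPE (log2 fold change 0.44, edgeR adjusted p = 3.37e-10) and ETNK2 (0.49, edgeR adjusted p = 7.09e-04) both rose. At SOX5, ETNK1 (log2 fold change 0.39, edgeR adjusted p = 7.13e-08) and LOC105369698 (0.91, edgeR adjusted p = 3.74e-06) rose. At SOX6, CYP2R1, a vitamin D hydroxylase gene, rose to 9.66 ± 0.577 CPM in shPRAME, against 1.10 ± 0.174 CPM in shCtrl (edgeR adjusted p = 4.54e-13). At SOX2, ATP11B fell (log2 fold change -0.32, edgeR adjusted p = 3.51e-07) and DNAJC19 did not pass (adjusted p = 0.107). NRSN2, the second neighbour of SOX12 (log2 fold change -0.04, edgeR adjusted p = 0.372), and C22orf23, beside SOX10 (0.19, edgeR adjusted p = 0.604), did not pass.

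The other SOX genes were examined as 9 further symbols. SOX1, SOX3, SOX14 and SOX21 had no count in any library, and SOX15, SOX17 and SOX30 had at most 4 counts over a group. SOX7 and SOX18, factors of vessel and heart development, were tested and did not pass: SOX7 averaged 0.5003 ± 0.0406 CPM in shPRAME and 0.501 ± 0.111 CPM in shCtrl (edgeR adjusted p = 0.975), and SOX18 0.756 ± 0.207 CPM in shPRAME and 0.793 ± 0.0862 CPM in shCtrl (edgeR adjusted p = 0.796). Among noncoding RNAs named after SOX genes, SOX2-OT, SOX5-AS1 and SOX1-OT had no count, SOX9-AS1 had 9 counts over the shPRAME group and 7 over the shCtrl group, and SOX21-AS1 had 6 over the shPRAME group and none over the shCtrl group. None of these 5 had enough counts to be tested.

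Genes known as SOX10 targets in melanocytes and glia moved both ways although SOX10 itself differed little. Of 24 listed, 13 were tested, of which 5 rose and 8 fell, with a median log2 fold change of -0.15 against 0.01 over all tested genes. Tested genes as a whole also moved both ways: 74.4% passed, 37.7% as higher and 36.8% as lower. EDNRB, the endothelin B receptor of melanoblasts, averaged 116 ± 2.70 CPM in shPRAME and 35.9 ± 1.75 CPM in shCtrl (edgeR adjusted p = 1.15e-16). ERBB3, a neuregulin receptor, averaged 603 ± 12.3 CPM in shPRAME and 322 ± 4.11 CPM in shCtrl (edgeR adjusted p = 1.18e-15). S100B, a calcium-binding protein gene of glia and melanocytes, fell to 28.2 ± 1.26 CPM in shPRAME, against 54.0 ± 0.629 CPM in shCtrl (edgeR adjusted p = 9.43e-13). TYR, TRPM1, KIT and CHRNB4 had no count in any library.

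Cartilage genes controlled by SOX9 with SOX5 and SOX6 were mostly higher, while SOX9 and SOX6 were lower and SOX5 and SOX8 higher. Of 21 listed, 15 were tested, of which 12 rose, 1 fell and 2 did not pass, with a median log2 fold change of 0.96. Of all tested genes 74.4% passed, 37.7% as higher, and COL9A1, 1 of the 12, entered the test only through shPRAME. HAPLN1, which links proteoglycan to hyaluronan, averaged 409 ± 17.0 CPM in shPRAME and 187.5 ± 7.03 CPM in shCtrl (edgeR adjusted p = 4.33e-15). COL2A1, the main collagen of cartilage, averaged 9.90 ± 0.540 CPM in shPRAME and 1.21 ± 0.0790 CPM in shCtrl (edgeR adjusted p = 2.14e-13). The gene that fell, WWP2, a ubiquitin ligase gene that hosts a SOX9-dependent microRNA, averaged 123 ± 5.49 CPM in shPRAME and 189 ± 6.98 CPM in shCtrl (edgeR adjusted p = 2.87e-11). ACAN, the cartilage proteoglycan aggrecan, averaged 8.83 ± 1.18 CPM in shPRAME and 2.37 ± 0.154 CPM in shCtrl (edgeR adjusted p = 2.19e-10), whereas COMP had 1 count over all libraries, MATN1 did not pass (edgeR adjusted p = 0.671), and UCMA and EPYC had no count. The 4 chondrocyte markers together summed to 18.3 to 19.8 CPM in the shPRAME libraries and 3.66 to 4.19 CPM in the shCtrl libraries. Their part in the levels of the SOX genes was not tested.

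Neuronal genes downstream of SOX4 and SOX11 were few in these cells. Of 12 listed, 5 were tested, of which 4 rose and 1 did not pass, with a median log2 fold change of 1.36. The share that passed was 80.0%, near the 74.4% of all tested genes, of which 37.7% of the total passed as higher. MAP2 and GAP43, both among the 4, entered the test only through shPRAME. The number that rose, the share and the median include both, so nothing is read from them. TEAD2, a SOXC target and partner of YAP, averaged 19.0 ± 0.0900 CPM in shPRAME and 7.39 ± 0.186 CPM in shCtrl (edgeR adjusted p = 3.64e-12). TUBB3 rose only slightly, at 215 ± 9.68 CPM in shPRAME and 187 ± 1.68 CPM in shCtrl (log2 fold change 0.20, edgeR adjusted p = 1.09e-05). NEFL did not pass, at 3.49 ± 0.464 CPM in shPRAME and 3.37 ± 0.164 CPM in shCtrl (log2 fold change 0.05, edgeR adjusted p = 0.756). GAP43, a growth cone protein gene, had 199, 243 and 252 counts in shPRAME and 8, 4 and 13 counts in shCtrl. Because of its entry through shPRAME alone, no test of it is given. GAP43 averaged 6.91 ± 0.481 CPM in shPRAME and 0.260 ± 0.151 CPM in shCtrl. STMN2, ELAVL4, INA and NEFM had no count, and DCX had 2 counts in shPRAME and none in shCtrl. Neuron markers summed to 48.0 to 52.8 CPM in shPRAME and 5.84 to 6.21 CPM in shCtrl. The synaptic vesicle gene SYT1 made up most of the sum in shPRAME (48.2 ± 2.41 CPM in shPRAME, 2.99 ± 0.246 CPM in shCtrl, edgeR adjusted p = 7.07e-18), and SYP fell (1.02 ± 0.143 CPM in shPRAME, 2.98 ± 0.412 CPM in shCtrl, edgeR adjusted p = 2.80e-07). Their part in the SOXC levels was not tested.

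The pluripotency genes that act with SOX2 were largely absent. Of 13 found, 3 were tested, of which 2 passed as higher and LIN28B did not pass (edgeR adjusted p = 0.321). The share that passed was 66.7%, against 74.4% of all tested genes. DPPA4 entered the test only through shPRAME. It had 207 counts over the shPRAME group and 1 over the shCtrl group, a ratio of 201 (counting interval 35.7 to 7976). KLF4 averaged 12.3 ± 1.49 CPM in shPRAME and 8.60 ± 0.625 CPM in shCtrl (edgeR adjusted p = 5.88e-05). POU5F1, the main partner of SOX2 in stem cells, had 2 counts over each group.

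SOX partners and regulators changed by small amounts. Of 15 tested genes 8 rose, 2 fell and 5 did not pass, none of them by 2-fold, and their median log2 fold change was 0.23. The share that passed was 66.7%, against 74.4% of all tested genes. CHD7, a chromatin remodeller that binds SOX2, averaged 177 ± 2.42 CPM in shPRAME and 119 ± 0.341 CPM in shCtrl (edgeR adjusted p = 1.52e-12). LEF1, a Wnt pathway factor with an HMG box of its own, averaged 113 ± 2.45 CPM in shPRAME and 82.7 ± 1.89 CPM in shCtrl (edgeR adjusted p = 3.09e-10). PAX3, the partner of SOX10 at the MITF promoter, fell to 9.24 ± 0.600 CPM in shPRAME, against 13.2 ± 0.0807 CPM in shCtrl (edgeR adjusted p = 5.48e-06), and MED12, a Mediator subunit that acts with SOX10, fell to 56.2 ± 1.27 CPM in shPRAME, against 70.5 ± 3.5 CPM in shCtrl (edgeR adjusted p = 5.13e-07). Without shPRAME replicate 2 the number that fell was 4.

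Genes that mark melanoma cells with little SOX10 mostly fell. Of 13 tested, 3 rose, 9 fell, 2 of them at least 2-fold, and 1 did not pass, with a median log2 fold change of -0.15. The share that passed was 92.3%. Of all tested genes 74.4% passed, 37.7% as higher and 36.8% as lower. PDGFRB averaged 17.4 ± 1.32 CPM in shPRAME and 64.3 ± 1.86 CPM in shCtrl (edgeR adjusted p = 9.67e-16), and the receptor gene AXL averaged 265.5 ± 11.5 CPM in shPRAME and 358 ± 4.75 CPM in shCtrl (edgeR adjusted p = 3.65e-10). EGFR rose to 46.1 ± 0.953 CPM in shPRAME, against 37.8 ± 1.81 CPM in shCtrl (edgeR adjusted p = 6.38e-06).

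**Figure D4:**
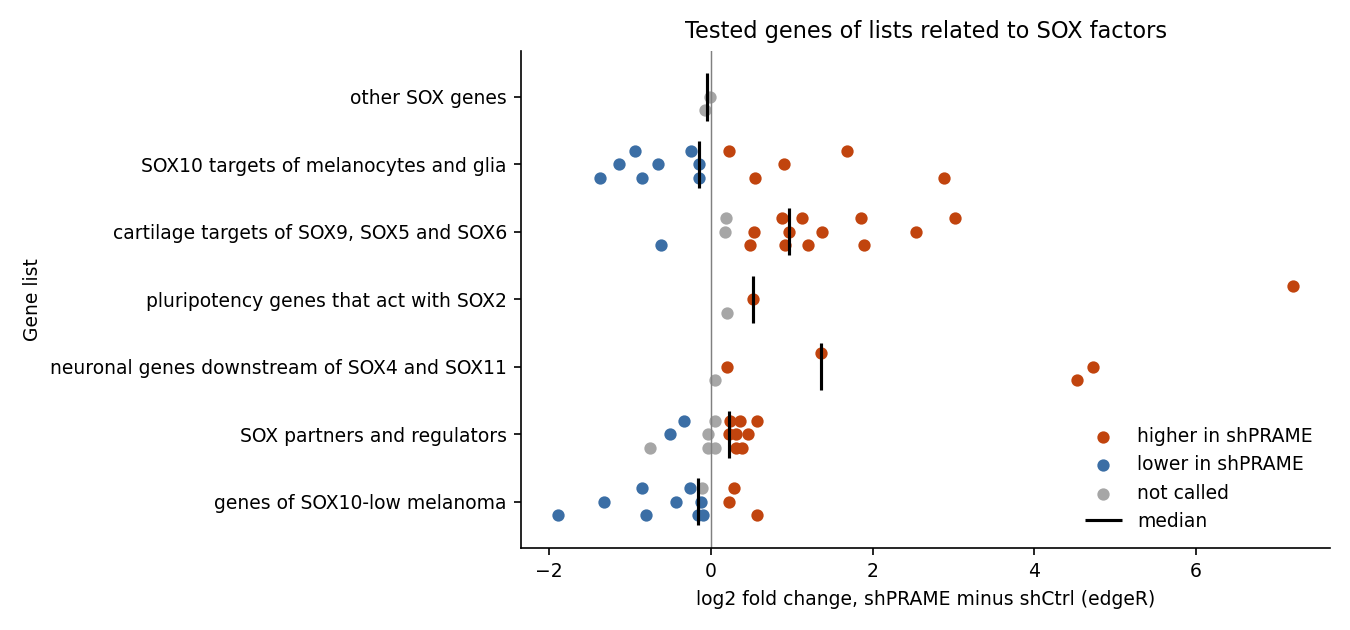
log2 fold change, shPRAME minus shCtrl, of the tested genes of 7 lists related to SOX factors; points are genes, coloured by whether they passed an edgeR adjusted p of 0.05, and black bars are list medians. In the cartilage list 12 of 15 genes passed as higher and 1 as lower, and in the SOX10 target list 5 passed as higher and 8 as lower.

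Markers of other cell types were compared over the same libraries, where 74.4% of all tested genes passed, 37.7% as higher and 36.8% as lower. Fibroblast markers summed to 71.7 to 76.4 CPM in shPRAME and 48.9 to 50.7 CPM in shCtrl, with 5 of 6 tested genes higher, 4 of which entered the test only through shPRAME, and FAP lower (27.0 CPM in shPRAME, 46.1 CPM in shCtrl). COL1A2 averaged 21.6 CPM in shPRAME and had no count in shCtrl. Leukocyte markers summed to 72.4 to 74.3 CPM in shPRAME and 43.0 to 45.4 CPM in shCtrl, nearly all of it CD68, with 3 of 3 tested genes higher, 2 of which entered the test only through shPRAME, and CD3E had no count. Endothelial markers summed to 3.01 to 3.85 CPM in shPRAME and 0.292 to 0.947 CPM in shCtrl, with CDH5 without a count. TEK entered the test only through shPRAME, with 281 counts over the shPRAME group and 3 over the shCtrl group. Keratinocyte markers summed to 23.2 to 24.4 CPM in shPRAME and 27.7 to 29.6 CPM in shCtrl, nearly all of it KRT10, and KRT5, KRT1 and TP63 had no count. Melanocytic markers summed to 156.6 to 159.9 CPM in shPRAME and 164.3 to 165.5 CPM in shCtrl. Genes that entered the test only through shPRAME could differ only by being higher there, so nothing is read from the numbers of markers called higher. The part of these markers in the SOX results was not tested.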

How the data were processed

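Each library has a file of whole-number counts per NCBI gene identifier, deposited by the authors and not normalized, per the file headers and values. The tools fastp, STAR and Salmon and the builds hg38 and GRCh38 are listed, without roles, per the submitters' processing notes. The sources used here do not give the counting tool, the annotation release or the use of strand. Repeated identifiers among the 40929 rows were summed, leaving 40895, of which 40789 matched RefSeq (GRCh38.p14).

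The test was edgeR 4.0.16 under R 4.3.3 (filterByExpr, TMM, quasi-likelihood F test, 2-sided, group as the only term) over 15954 genes with Benjamini-Hochberg adjustment and a threshold of 0.05. Standard errors were derived from the fold change and the root of F. A zero count allows up to 3 counts, 0.0869 to 0.0973 CPM per library, and this floor and the counting intervals (exact binomial, 95%) cover counting error only. Transcript lengths came from GENCODE release 29. Alternatives were limma-voom (limma 3.58.1), DESeq2 1.42.0, RLE or library-total scaling, other filters, the replicate number as a block, each library left out, and removal of the neighbours' median.

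The members, the 16 gene lists and the tests were chosen with earlier results of these data known. In the lists, 1 of 161 names was not found. Named genes are PRAME, all members, the other SOX genes with a count, up to 4 genes per list (with mean CPM of 1 or more, the 2 best adjusted p-values among genes called higher and among those called lower), the 2 most abundant markers per cell type, and overlapping or nearest tested genes. Other genes in the text were named after their values were seen. Some genes that this rule selects, and the summed level of the glial markers, are not reported here.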

Additional observations from a re-analysis of the deposited data

How the results depend on the processing

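No member that passed changed sign under any alternative run, and the counts of genes called stayed within 1.5 times over all genes. SOX10, which did not pass, passed with scaling to the library total, with no filter on low counts and without shCtrl replicate 1 (10 members called in place of 9). Nothing is read from these numbers of members either, because the members were chosen from this contrast. With scaling to the library total the log2 fold change was -0.48 for SOX9 and 0.10 for SOX10. With the neighbouring genes' median removed it was -0.96 for SOX2, 2.52 for SOX4, 0.55 for SOX5, -0.91 for SOX13, -0.60 for SOX9 and -0.14 for SOX10. SOX11, with 1 count in shCtrl, gave 13.61 by DESeq2, 12.60 by limma-voom and 12.80 to 15.14 with a library left out. SOX8 gave 8.80 to 9.52 with a library left out. These fitted values of SOX8 and SOX11 depend on few control counts. The summed SOXE log2 ratio was -0.12 with the union of exons as length, against -0.09.

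With a library left out, pluripotency genes called higher numbered 2 to 4 (4 without shCtrl replicate 1) and SOX partners called lower 2 to 4. The cause of these shifts was not tested.

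Libraries with the same replicate number did not deviate together (r from -0.12 to -0.06), so no pairing by number was seen. With 3 libraries per group, these values cannot show that the numbers do not pair them. With the number as a replicate block 5868 genes were called higher and 5735 lower, against 6008 and 5867, and SOX4 had a log2 fold change of 2.76. Depth limits SOX11 and SOX8, at 0 to 3 counts per shCtrl library, and SOX2, at 40 to 80 counts per library.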

Other observations

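Genes with a level pattern like that of a SOX gene were sought by the Euclidean distance of log2(CPM + 0.1) over the 6 libraries. Nearest to SOX11, the member with the largest log2 fold change, were ROBO1 (distance 1.27), SORCS1 (1.29) and TFAP2B (1.65). ROBO1, an axon guidance receptor gene, averaged 122.5 ± 3.70 CPM in shPRAME and 0.0726 ± 0.0214 CPM in shCtrl. SORCS1, a sorting receptor gene, averaged 82.5 ± 3.82 CPM in shPRAME and had 1 count over the shCtrl group. TFAP2B, a neural crest factor gene, averaged 145.8 ± 1.77 CPM in shPRAME and 0.104 ± 0.0522 CPM in shCtrl (SD, n = 3 each). Nearest to SOX6, the member with the most negative log2 fold change, were RILPL2 (distance 0.204), ISOC1 (0.223) and ZMYM6 (0.228). Each stood at 10.7 to 11.2 CPM in shPRAME and 18.3 to 19.5 CPM in shCtrl on average.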
